A study of Rattus norvegicus with 4 samples.

Results

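Rest encodes REST, the zinc finger repressor of neural genes, and it was followed here together with 9 genes for the corepressor subunits that REST recruits, namely Rcor1, Rcor2, Rcor3, Sin3a, Sin3b, Hdac1, Hdac2, Kdm1a and Ehmt2. The genes were chosen by name. Of the 10 names, 8 had a row of read counts among the 25810 genes listed per library, 7 under the current symbol and Kdm1a under its older symbol Kdm1, while Rcor3 and Sin3b were not analysed here. All 8 passed the filter on low counts and entered the comparison of 13726 tested genes.

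The RNA came from PC12 cells, a rat pheochromocytoma line used as a model of neurosecretory cells, grown as 2 clones. The clone wtPC12 is described as wild type with low REST, and the clone hrPC12, formerly called PC12-27, as high in REST, with 2 RNA-Seq libraries each. No transgene or treatment is given for either clone, so each REST level is carried by 1 clone, and the level of REST cannot be told apart from any other difference between those clones. Nothing in the labels states whether the libraries of a clone came from separate cultures, and the p values then measure only the spread between libraries, which may be technical.

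REST binds a sequence called RE1 and carries a repressor domain at each end. The N-terminal domain recruits SIN3 scaffolds, while the C-terminal domain recruits CoREST proteins, encoded by the Rcor genes, and both complexes bring in the histone deacetylases HDAC1 and HDAC2. CoREST also holds the H3K4 demethylase LSD1, encoded by Kdm1a, and REST further recruits the H3K9 methyltransferase G9a, encoded by Ehmt2. In most neuronal cells REST is kept low and its targets are transcribed.

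Reads on genes numbered between 20975027 and 27246502 per library, which was 37.9% to 41.3% of the reads accounted for. Of the 13726 tested genes, 1796 had an adjusted p under 0.01 in the quasi-likelihood test of edgeR (p adjusted after Benjamini and Hochberg), 980 of them lower in hrPC12 and 816 higher. The 9 PC12 markers with a row (among them Th, for tyrosine hydroxylase, and Chgb, for chromogranin B) summed to 957313 and 818531 normalized counts in wtPC12 and to 47230 and 51753 in hrPC12. Chgb made up most of the wtPC12 sum, with 687936 and 626776. Of the 8 tested markers, 6 were lower in hrPC12 at an adjusted p under 0.01 in the same test. Ddc, at 24196 and 20841 in wtPC12 and 26281 and 27995 in hrPC12, was not. Nor was Slc18a2, at 209 and 147 in wtPC12 and 218 and 115 in hrPC12. The 8 leukocyte markers summed to 45.4 and 38.1 normalized counts in wtPC12 and to 86.3 and 99.2 in hrPC12, with 1 read of Ptprc in all. Cd68 made up most of the hrPC12 sum, with 75.3 and 87.0 normalized counts, beside 23.3 and 28.8 in wtPC12. Its log2 FC was 1.63 (adjusted p = 0.0283 in edgeR's test). The 4 endothelial markers summed to 95.4 and 115 in wtPC12 and to 627 and 619 in hrPC12, where Vwf made up most of the sum, with 666 and 553 reads. The part of these marker differences in the results on REST was not tested. In such bulk RNA, fewer cells of a type and less RNA per cell cannot be told apart.

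The first question was how far the Rest transcript itself differed between the clones. Rest was counted with 37 and 128 reads in wtPC12 replicates 1 and 2, and with 1139 and 904 reads in hrPC12 replicates 1 and 2. Normalized for library size, with the trimmed mean of M values (TMM), these were 43.0 and 132 normalized counts in wtPC12 and 964 and 915 in hrPC12. Both hrPC12 libraries lay far above both wtPC12 libraries, and the lower hrPC12 value was 6.94 times the higher wtPC12 value. The mean was 87.4 ± 62.8 normalized counts in wtPC12 and 939 ± 35.0 in hrPC12 (SD, n = 2 each). The log2 fold change (log2 FC, hrPC12 over wtPC12) was 3.42 with a standard error of 0.57, that is 10.7-fold, with a 95% interval from 3.93-fold to 29.0-fold. The adjusted p was 0.0115 in edgeR's test, which missed the threshold of 0.01. Rest therefore was not among the differentially expressed (DE) genes, defined by a log2 FC past 2 together with an adjusted p under 0.01. Without wtPC12 replicate 1 the log2 FC of Rest was 2.80 and the adjusted p 0.00382, and without wtPC12 replicate 2 they were 4.44 and 0.0134 in the same edgeR test, where the smallest adjusted p of any tested gene was 0.0130.

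**Figure D1:**
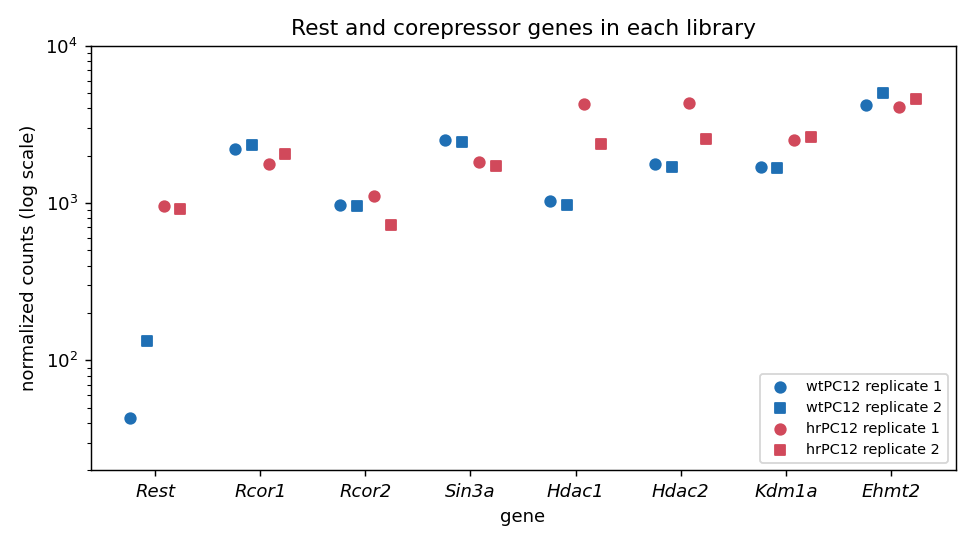
Normalized counts (log axis) of Rest and the 7 corepressor genes with counts, with 1 point per library, wtPC12 in blue and hrPC12 in red. Rest stood at 43.0 and 132 in wtPC12 and at 964 and 915 in hrPC12, and Hdac1 was the gene whose hrPC12 libraries lay furthest apart, at 4295 and 2386.

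The wtPC12 libraries differed from each other in Rest more than the hrPC12 libraries did. Replicate 2 held 3.06 times the normalized level of replicate 1, with an exact binomial 95% interval of the ratio from 2.11 to 4.54 that covers counting error only. The exact 95% Poisson intervals of the 2 values, 30.3 to 59.3 and 110 to 157 normalized counts, did not meet. Expressed against the hrPC12 mean, wtPC12 replicate 1 stood at 4.58% and replicate 2 at 14.0%. The hrPC12 libraries differed by a factor of 1.05. Of the 13489 tested genes with reads in both wtPC12 libraries, 603 (4.47%) differed between them by at least as much as Rest, and among 1705 genes of similar level, from 43.7 to 175 normalized counts, 112 did (6.57%). Over those 13489 genes the median size of the log2 ratio between the wtPC12 libraries was 0.39. Between the hrPC12 libraries it was 0.17, over the tested genes with reads in both hrPC12 libraries.

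**Figure D2:**
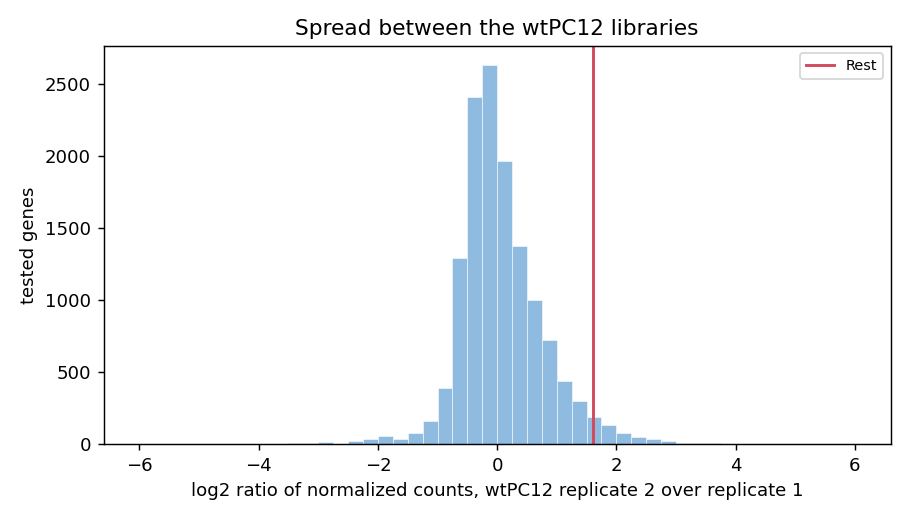
Number of tested genes by the log2 ratio of wtPC12 replicate 2 over replicate 1, for the 13489 genes with reads in both (bars), with the log2 ratio of Rest, 1.62, as a red line. Of these genes, 603 lay at least as far from 0 as Rest, on either side.

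Genes that hrPC12 expresses at high level were then read in the same wtPC12 libraries, and their sum was compared between those libraries. Vim, Anxa1, Col5a2, Itga5, Itga7, A2m, Osr1, Aff3 and Mpeg1 were chosen for their difference between these same libraries, so their low level in wtPC12 is fixed by the choice. Their summed level was 0.382% of the hrPC12 mean in wtPC12 replicate 1 and 0.326% in replicate 2. No comparison of these levels with that of Rest is drawn, and what lies behind the spread of Rest was not tested. Single genes went both ways. Anxa1 had 107 and 64.9 normalized counts in wtPC12 replicates 1 and 2, and Itga5 had 32.6 and 41.2. Of the genes of the RE1 target list described later, 10 were lower and 14 higher in wtPC12 replicate 2 than in replicate 1. Their median log2 ratio was 0.05, beside -0.04 over all tested genes.

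The next question was whether the corepressor genes differed along with Rest. None of the 8 genes had an adjusted p under 0.01 in the quasi-likelihood test of edgeR, where 13.1% of all tested genes did, and none was a DE gene, where 10.3% were. At an adjusted p under 0.05 there were 3 of the 8, Rest, Hdac1 and Kdm1a, all higher in hrPC12, while 32.4% of all tested genes reached that level. Before adjustment, 5 of the 8 had a p under 0.05 in edgeR, beside 46.3% of all tested genes. In DESeq2, and in edgeR with other normalization factors (RLE) or none, 2 of the 8 had an adjusted p under 0.01, Rest and Hdac1, beside 27.8% of all tested genes in DESeq2. The third gene at 0.05 changed with the tool. The adjusted p of Kdm1a was 0.0570 in DESeq2 and 0.0756 with RLE factors in edgeR, where that of Hdac2 was 0.0128 and 0.0332. Kdm1a also lost this level without wtPC12 replicate 1 (0.0847) or either hrPC12 library (0.268 and 0.280), and Hdac1 lost it without wtPC12 replicate 2 (0.0939), in edgeR's test. The libraries of the clones did not overlap for 6 of the 8 genes, 4 higher and 2 lower in hrPC12, beside 73.5% of all tested genes, so that this count was near the background. The 8 genes had a median log2 FC of 0.27, beside 0.06 over all tested genes, and the median of its absolute size 0.54 beside 0.74.

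Among the genes of the CoREST complex, Rcor1, for the scaffold CoREST1, had 2208 and 2333 normalized counts in wtPC12 and 1763 and 2059 in hrPC12. Both hrPC12 libraries lay below both wtPC12 libraries, with a log2 FC of -0.25 (95% interval -0.70 to 0.21, adjusted p = 0.318 in edgeR's test). Rcor2, for the related scaffold CoREST2, had 969 and 959 normalized counts in wtPC12 and 1117 and 729 in hrPC12. The wtPC12 libraries fell between the hrPC12 libraries, so the clones overlapped. Its log2 FC was -0.06 with a 95% interval from -0.76 to 0.63 (adjusted p = 0.868 in edgeR's test). Kdm1a, for the H3K4 demethylase, had 1708 and 1665 normalized counts in wtPC12 and 2517 and 2626 in hrPC12, and was higher in both hrPC12 libraries. The log2 FC of Kdm1a was 0.61 ± 0.16 (SE), or 1.52-fold, with an adjusted p of 0.0433 in edgeR's test that missed the threshold of 0.01.

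For the SIN3 scaffold, Sin3a had 2503 and 2441 normalized counts in wtPC12 and 1839 and 1716 in hrPC12. It was lower in both hrPC12 libraries, with the higher hrPC12 value still under the lower wtPC12 value by a factor of 1.33. The log2 FC of Sin3a was -0.48 ± 0.17 (SE) and its 95% interval ran from -0.90 to -0.05 before adjustment. After Benjamini-Hochberg adjustment the p was 0.0819 in edgeR's test.

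The deacetylase genes were the members, Rest aside, with the widest differences between the clones. Hdac1 had 1028 and 971 normalized counts in wtPC12 and 4295 and 2386 in hrPC12. The lower hrPC12 library still held 2.32 times the higher wtPC12 library, but the hrPC12 libraries differed from each other by a factor of 1.80. The log2 FC of Hdac1 was 1.74 ± 0.32 (SE), or 3.34-fold, with an adjusted p of 0.0157 in edgeR's test. Hdac2 had 1765 and 1698 normalized counts in wtPC12 and 4354 and 2547 in hrPC12, again with replicate 1 of hrPC12 the higher, by a factor of 1.71. The difference between the clones was 1.99-fold, with a 95% interval from 1.19-fold to 3.33-fold and an adjusted p of 0.0537 in edgeR's test. The size of both differences rested in part on hrPC12 replicate 1. Without it the log2 FC was 1.25 for Hdac1 and 0.56 for Hdac2, and without hrPC12 replicate 2 it was 2.06 and 1.28.

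Ehmt2, for the H3K9 methyltransferase G9a, had 4239 and 4983 normalized counts in wtPC12 and 4076 and 4622 in hrPC12. The clones overlapped, and the log2 FC was -0.08 with a 95% interval from -0.54 to 0.37 (adjusted p = 0.730 in edgeR's test). The intervals of Rcor1, Rcor2 and Ehmt2 thus included 0, which allows differences up to the bounds given and does not show equal levels.

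**Figure D3:**
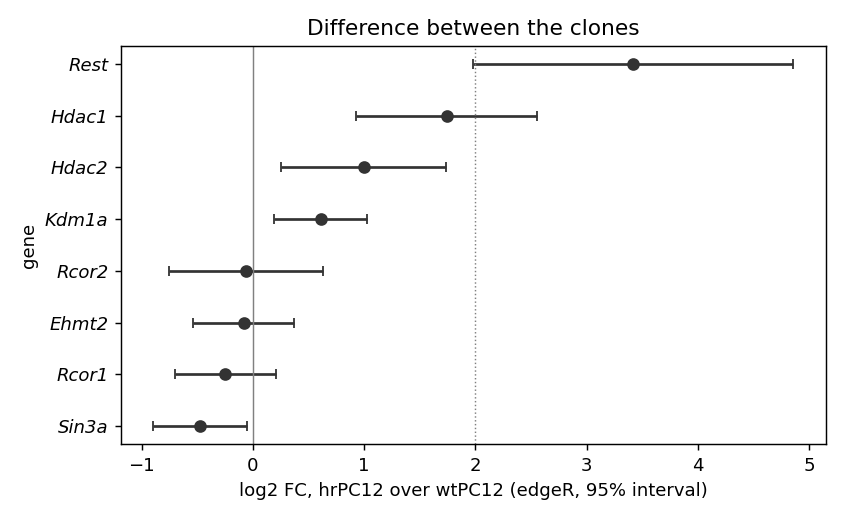
Log2 FC of the 8 genes with counts (hrPC12 over wtPC12) with 95% intervals from edgeR. Points right of the solid line at 0 were higher in hrPC12, and the dotted line marks the log2 FC of 2 required of DE genes, which only the point of Rest, at 3.42, passed.

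Paralogues that can take the same place in a complex were compared within libraries, as a ratio of reads that does not depend on the library size. Hdac2 reads per Hdac1 read were 1.72 and 1.75 in wtPC12 and 1.01 and 1.07 in hrPC12. The ratio was close between the libraries of a clone and lower in both hrPC12 libraries, although the level of both genes differed between the hrPC12 libraries. The log2 ratio was -0.74 in hrPC12 relative to wtPC12, with an exact 2-sided permutation p of 0.33, which is the smallest p that 2 against 2 libraries allow. Rcor2 reads per Rcor1 read were 0.439 and 0.411 in wtPC12 and 0.634 and 0.354 in hrPC12. Here the clones overlapped, with a log2 difference of 0.16 and an exact 2-sided permutation p of 1. The ratios that need Rcor3 or Sin3b were not analysed here.

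Because Hdac1, Hdac2 and Rcor2 differed between the hrPC12 libraries, each member was set beside its 6 nearest genes with a mean of at least 100 normalized counts, in the gene order of the rat assembly GRCr8. For Hdac1 the log2 ratio of hrPC12 replicate 1 over replicate 2 was 0.85, and the median of its neighbours was 0.70, with 5 of 6 above 0. Marcksl1 (0.85), Zbtb8os (0.76), Eif3i (0.71), Zbtb8a (0.69) and Lck (0.55) were higher in replicate 1, and Bai2 (-0.19) was not. Of the 8683 placed genes, 7.12% had a log2 ratio at or above that of Hdac1. The neighbours of Hdac2, whose own log2 ratio was 0.77, had a median of -0.15, and those of Rcor2, at 0.62, a median of -0.08. The spread of Hdac1 between the hrPC12 libraries was thus shared by most of its neighbours, while that of Hdac2 and of Rcor2 was not. Between the clones the neighbours of Hdac1 were mixed, with a median log2 FC of 0.50 that ran from -1.57 for Bai2 to 2.29 for Zbtb8os. What lies behind the shared spread was not tested.

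**Figure D4:**
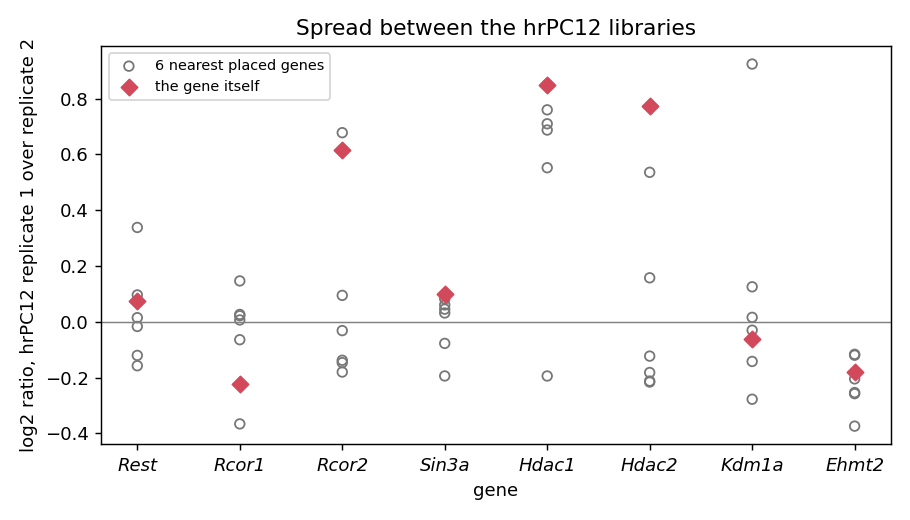
Log2 ratio of hrPC12 replicate 1 over replicate 2 for each member (red diamonds) and its 6 nearest placed genes (open circles). For Hdac1, 5 of 6 neighbours lay above 0 near its own 0.85, whereas the neighbours of Hdac2 had a median of -0.15.

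The other partners of these complexes were read from 7 lists, on CoREST, SIN3, NuRD and related deacetylase complexes, the other Hdac genes, H3K9 and H3K4 enzymes and readers, further REST partners, and proteins that handle REST. Of 86 listed genes, 76 had a row and 74 were tested. In the quasi-likelihood test of edgeR 3 of the 74 (4.05%, beside 13.1% of all tested genes) had an adjusted p under 0.01, and all 3 rose in hrPC12. At an adjusted p under 0.05 there were 21, 12 lower and 9 higher, again no larger a share than the 32.4% of all tested genes. The median log2 FC was -0.10, and the clones did not overlap for 53 of the 74 (71.6%, beside 73.5% of all tested genes). The count of 3 depended on the libraries and the tool. In DESeq2 it was 16 of the 74, beside 27.8% of all tested genes. Without wtPC12 replicate 1 there were again 3, but these were Gse1, Chd3 and Chd5, with none of those called on all libraries.

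Of 10 tested CoREST partners, 0 had an adjusted p under 0.01 in edgeR's test and 3 in DESeq2, 5 had an unadjusted p under 0.05 in edgeR, and the median log2 FC was -0.39. These counts are near the 46.3% (unadjusted) and 27.8% (DESeq2) of all tested genes. At an adjusted p under 0.05 in edgeR's test there were 4 of the 10, beside 32.4% of all tested genes, and all 4 were lower in hrPC12. Gse1, a subunit of the complex, had 4859 and 8416 normalized counts in wtPC12 and 3124 and 3207 in hrPC12, with a log2 FC of -1.07 (adjusted p = 0.0460 in edgeR's test). Ctbp1, a corepressor that binds CoREST complexes, had a log2 FC of -0.52 (adjusted p = 0.0707 in edgeR's test). Phf21b, named here once its values were known, had the lowest log2 FC of the list, -2.89, with an adjusted p of 0.0162 in the same test.

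Of 12 tested SIN3 partners, 0 had an adjusted p under 0.01 in edgeR's test and 1 in DESeq2, 4 had an unadjusted p under 0.05 in edgeR, and the median log2 FC was -0.18. Both shares lay below the 46.3% and 27.8% of all tested genes. Rbbp7, for a histone chaperone shared by SIN3 and NuRD complexes, had a log2 FC of -0.32 (adjusted p = 0.283 in edgeR's test), and Brms1, for a subunit of SIN3 complexes, one of -0.70 (adjusted p = 0.0609 in edgeR's test). Rbbp4, the paralogue of Rbbp7, is named here once its values were known. It had 890 and 875 normalized counts in wtPC12 and 5155 and 2650 in hrPC12, a log2 FC of 2.15 and an adjusted p of 0.0113 in edgeR's test. Rbbp4 lies 4 genes from Hdac1 in the order of placed genes and, as Hdac1 did, was higher in hrPC12 replicate 1 than in replicate 2, with a log2 ratio of 0.96.

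In the list of NuRD and related complexes 1 of 11 tested genes had an adjusted p under 0.01 in edgeR's test and 3 in DESeq2. Over all tested genes these shares were 13.1% and 27.8%. Mier1, for a scaffold that binds HDAC1 and HDAC2, rose from 1054 and 1013 normalized counts in wtPC12 to 2504 and 2490 in hrPC12, with a log2 FC of 1.27 (adjusted p = 0.00642 in edgeR's test). Leaving out any 1 of the 4 libraries lost this call, with a log2 FC from 1.23 to 1.27. Without wtPC12 replicate 2 no tested gene passed 0.01. The remodeller genes Chd3 and Chd5 had log2 FC of -1.40 and -2.77 and adjusted p of 0.0253 and 0.0113 in edgeR's test, the latter named once its values were known. Chd4, the paralogue of both, had a log2 FC of 0.05 with overlapping clones.

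Of 8 tested Hdac genes other than Hdac1 and Hdac2, 0 had an adjusted p under 0.01 in edgeR's test or in DESeq2. The shares over all tested genes were 13.1% and 27.8%. A log2 FC below 0 was seen for 7 of 8, beside 6552 of the 13726 tested genes. Their median was -0.47, beside 0.06 over all tested genes. In edgeR 4 of the 8 had an unadjusted p under 0.05. The unadjusted count is near the 46.3% of all tested genes. Hdac5, for a class IIa deacetylase, had a log2 FC of -0.68 (adjusted p = 0.0363 in edgeR's test), and Hdac6, for a cytoplasmic tubulin deacetylase, one of -0.45 (adjusted p = 0.0904 in edgeR's test). Hdac9, named for the same reason, was not tested, with 2 reads in hrPC12 replicate 1 and 0 in the other libraries.

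Among 12 tested genes of H3K9 and H3K4 enzymes and readers, 1 had an adjusted p under 0.01 in edgeR's test and 1 in DESeq2. Over all tested genes the shares were 13.1% and 27.8%. Cbx3, for the heterochromatin protein HP1 gamma, rose from 2111 and 1876 normalized counts to 7848 and 5766, with a log2 FC of 1.77 (adjusted p = 0.00498 in edgeR's test). The call was lost without wtPC12 replicate 1, where the log2 FC was 1.82. Without wtPC12 replicate 2, where no tested gene passed 0.01, the log2 FC was 1.69. Without hrPC12 replicate 1 it was 1.53, and without hrPC12 replicate 2 it was 1.93. Ehmt1, for GLP, the partner of G9a, and Setdb1, for another H3K9 methyltransferase, had log2 FC of -0.24 and -0.26 and adjusted p of 0.341 and 0.274 in edgeR's test. Of the 7 tested further partners, 0 had an adjusted p under 0.01 in edgeR's test and 3 in DESeq2, and 4 had an unadjusted p under 0.05 in edgeR, beside 27.8% and 46.3% of all tested genes. There Smarca4, for the remodeller BRG1, had a log2 FC of -0.09 with overlapping clones, and Smarcc2, for a subunit of the same SWI/SNF complex, one of -0.83 (adjusted p = 0.0462 in edgeR's test).

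Among 14 tested genes for proteins that handle REST, 1 had an adjusted p under 0.01 in edgeR's test and 5 in DESeq2. Over all tested genes the shares were 13.1% and 27.8%. The 1 gene called in edgeR was also a DE gene, beside 10.3% of all tested genes. Prickle1, for a protein known to bind REST and to affect its entry into the nucleus, rose from 107 and 156 normalized counts to 959 and 567, with a log2 FC of 2.54 (adjusted p = 0.00938 in edgeR's test). Here too the call was lost without wtPC12 replicate 1, where the log2 FC was 2.26. Without wtPC12 replicate 2, where no tested gene passed 0.01, the log2 FC was 2.83. Without hrPC12 replicate 1 it was 2.11, and without hrPC12 replicate 2 it was 2.82. Skp1, for a subunit of the ubiquitin ligase that marks REST for degradation, had a log2 FC of 0.15 with overlapping clones. At an adjusted p under 0.05 in edgeR's test there were 4 of the 14, all higher in hrPC12, beside 32.4% of all tested genes. Cul1, named once its values were known, was among them, with a log2 FC of 0.97 (adjusted p = 0.0134 in edgeR's test). Huwe1, for another ubiquitin ligase, had a log2 FC of 1.44 (adjusted p = 0.0813 in edgeR's test), with 17412 normalized counts in hrPC12 replicate 1 and 7986 in replicate 2. Srrm4, for the splicing factor known to direct Rest transcripts to a truncated form in neural cells, is named for its values, outside the rule. It had 43 and 105 reads in wtPC12 and 0 in both hrPC12 libraries, which the filter on reads in both clones kept out of the test. Its mean of 79.1 ± 41.1 normalized counts (SD, n = 2) in wtPC12 was at least 28.4-fold higher than in hrPC12, where 0 reads allow up to 3 per library. From wtPC12 replicate 1 alone the bound was 17.9-fold. In the fit to every gene with reads, Srrm4 had an adjusted p of 0.000676 in edgeR's test.

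**Figure D5:**
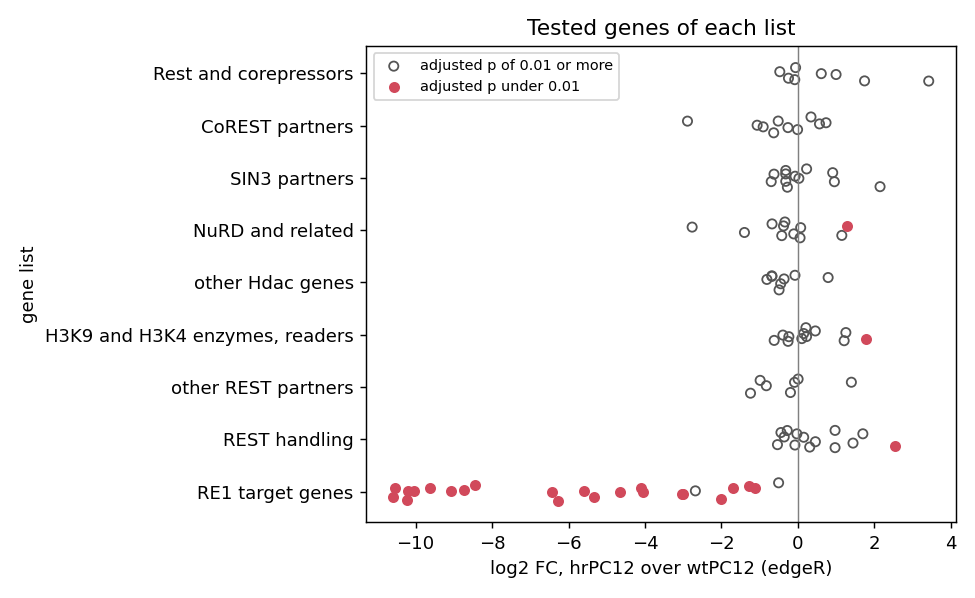
Log2 FC (hrPC12 over wtPC12) of every tested gene of the 9 lists, with filled red points for an adjusted p under 0.01 in edgeR's test and open points for the rest. None of the 8 members, 3 of the 74 cofactor and handling genes and 22 of the 24 RE1 targets are filled.

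The RE1 target list holds neuronal and secretory genes widely described as bound by REST. It was written with earlier results of these data known, so its counts may in part reflect that choice. Binding was not measured, and whether REST lies behind the differences was not tested. Of 31 listed genes, 27 had a row and 24 were tested. All 24 had a log2 FC below 0. In the quasi-likelihood test of edgeR 22 of them had an adjusted p under 0.01, beside 13.1% of all tested genes. Of the 24, 19 were DE genes, beside 10.3% of all tested genes. The clones did not overlap for any of the 24 genes, beside 73.5% of all tested genes, and the median log2 FC was -5.46. Without wtPC12 replicate 2 all 24 still had a log2 FC below 0. In DESeq2 on all libraries, 23 of the 24 had an adjusted p under 0.01, beside 27.8% of all tested genes.

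Syt4, for a synaptotagmin of secretory vesicles, had 17379 and 15807 normalized counts in wtPC12 and 9.31 and 13.2 in hrPC12, a log2 FC of -10.53. The granule genes Chgb, Scg2 and Scg3, for chromogranin B and secretogranins, had log2 FC of -10.22, -10.20 and -9.61, and Grin1, for an NMDA receptor subunit, one of -10.05. The exceptions were Syn1, for synapsin, whose log2 FC was -0.51 (adjusted p = 0.182 in edgeR's test), and Unc13a, for a vesicle priming factor, at -2.68 (adjusted p = 0.0183 in edgeR's test). The hrPC12 mean as a share of the wtPC12 mean was thus 0.0677% for Syt4 and 70.4% for Syn1.

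RE1 letters were searched in the promoters of RefSeq (GRCr8, 250 bases before to 50 after each gene start), as CAGCACC and GGACAG set 2 bases apart, on both strands. With up to 2 of the 13 letters differing, 1.96% of all 27457 promoters held the motif, and with up to 1 differing 0.215% did. Promoters were found for 9 of the 10 members (none for Rcor2), and 0 of the 9 held it with up to 2 letters differing. Of 21 target promoters found, 2 held it with 1 letter differing, and these windows are shown because they tie a target to the letters that REST is known to read. Each is printed 5′ to 3′ on the plus strand of GRCr8 with the 13 compared letters in capitals, at chr12:25277018-25277042 for Vgf and chr8:118409014-118409038 for Celsr3, where the motif begins at position -17 and -117 from the gene start.
Vgf: ggcttCAGCACGctGGACAGcgccc
Celsr3: ccattCAGCACCgtGGGCAGcactt

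Vgf, for a secreted neuropeptide precursor, had 14046 and 13968 normalized counts in wtPC12 and 6032 and 6937 in hrPC12, with a log2 FC of -1.11 (adjusted p = 0.00997 in edgeR's test). Celsr3, for a cadherin of axon guidance, had 5407 and 12872 in wtPC12 and 101 and 110 in hrPC12, with a log2 FC of -6.44 (adjusted p = 0.00146 in edgeR's test). The target with the smaller change, Vgf, and the one with the larger change, Celsr3, both had 1 letter differing. A match in these windows is a description of letters and was not tested as a binding site.

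Finally, the genes closest to Rest in their pattern over the 4 libraries were listed, by the distance between centred log2 profiles among 10817 genes with a mean of at least 100 normalized counts. The median distance of all candidates was 3.81, and Hdac1 stood nearest among the members at 2.34. Among the nearest were the genes listed as F1M7H7_RAT (0.0852) and F1LZA8_RAT (0.196), Myo10 (0.305), for an unconventional myosin, and Manea (0.307), for a mannosidase. Each of these 4 was, as Rest was, lower in wtPC12 replicate 1 than in replicate 2. That follows from the choice, because the distance covers those same libraries.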

How the data were processed

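RNA was extracted from both PC12 clones, and TruSeq v2 libraries, a kit that does not mark strand, were sequenced on a HiSeq 2000. Reads were aligned to the rat build rn4 with TopHat2 2.0.4, and HTSeq 0.5.3 and DESeq 1.9.12 are also named in the submitters' processing notes. The authors deposited raw counts, 1 value for each gene in each library, neither normalized nor filtered. Reads without a unique position (5.85% to 9.13%) and reads outside genes were left out, so genes with near-identical copies may be undercounted. The authors' table of their own DESeq comparison, holding means, fold changes and p values, was not used.

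Counts were analysed with edgeR 4.0.16 under R 4.3.3 (with limma 3.58.1, TMM factors, glmQLFit and glmQLFTest, legacy option on), with Benjamini-Hochberg adjustment over all tested genes. The filter was that of the study, reads in both clones and a mean normalized count of 5 or more. The common dispersion was 0.0745. A normalized count is the count divided by the effective library size and multiplied by the mean effective library size. Intervals of single counts cover counting error only. DESeq2 1.42.0, 2 other scalings, 2 other filters, edgeR's legacy option off, a test against a log2 FC of 1, an adjusted p of 0.05 and leaving out each library were alternatives, and a prior count of 2 was added after seeing the data. The scripts were tested on simulated data. Members and lists were chosen with earlier results of these data known. The genes named from each list are up to 6 that passed with the largest change and the 2 with the highest mean level among those that did not. Beside them stand the 5 genes nearest to Rest in pattern. Some genes that the rule names are not reported here. Other names were chosen after their values were seen, as stated.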

Additional observations from a re-analysis of the deposited data

How the results depend on the processing

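No paired analysis was possible because the labels of the clones share no replicate numbers that link libraries. With 2 libraries per clone, leaving out 1 library leaves a single library assumed to vary like those of the other clone.

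The log2 FC of Rest stayed above 3 under every other normalization, filter and tool, and its adjusted p was under 0.01 in 5 of these 8 settings, the exceptions being edgeR's filterByExpr (0.0109), the test against a log2 FC of 1 (0.0236) and a prior count of 2 (0.0115), the last chosen after seeing the data. The log2 FC was 3.38 with RLE factors, 3.46 when library totals alone set the scale, 3.42 with every gene with reads and with an adjusted p of 0.05 as the threshold, 3.39 in DESeq2 and 3.41 with the legacy option off. Leaving out 1 library gave 2.80 to 4.44. The number of members with an adjusted p under 0.01 was 2 with RLE factors, library totals, every gene or DESeq2, and 1 with the legacy option off. Over all genes of the same fits the shares were 18.6%, 17.7%, 16.6%, 27.8% and 13.9%, in that order. At 0.05, 3 members passed, beside 32.4% of all tested genes. Of the members past both DE thresholds there were 1 under each of these settings and 0 to 2 without 1 library.

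The cofactor and handling lists, with 3 genes in the report, gave 8 with RLE factors, 7 with library totals, 12 with every gene, 16 in DESeq2, 0 in the test against a log2 FC of 1, 21 at 0.05 and 0 to 6 without 1 library. Over all genes of the same fits the share under 0.01 was 18.6% with RLE factors, 17.7% with library totals and 16.6% with every gene. It was 27.8% in DESeq2 and 7.92% against a log2 FC of 1, and 32.4% were under 0.05 in the main fit. Against a log2 FC of 1 the adjusted p was 0.135 for Mier1, 0.0257 for Cbx3 and 0.0251 for Prickle1. The RE1 targets gave 0 to 21 without 1 library. Over all tested genes the 1796 calls became 3059 with every gene, 3813 in DESeq2, 1087 against a log2 FC of 1, 4449 at 0.05 and 0 to 2250 without 1 library, and the DE genes 0 to 1854. In each of these lists the 0 came without wtPC12 replicate 2, where the smallest adjusted p of any gene was 0.0130 and 4478 genes had one under 0.05. The cause was not tested. Signs reversed only for genes near 0. Without 1 library the log2 FC ran from -0.40 to 0.17 for Rcor2 (above 0 without hrPC12 replicate 2), from -0.23 to 0.037 for Ehmt2 (above 0 without wtPC12 replicate 2 or hrPC12 replicate 1), from -0.16 to 0.26 for Chd4 (below 0 without wtPC12 replicate 1 or hrPC12 replicate 2), from -0.21 to 0.0015 for Smarca4 (above 0 without wtPC12 replicate 2) and from -0.062 to 0.37 for Skp1 (below 0 without wtPC12 replicate 2). The Hdac2 to Hdac1 log2 difference was -0.77 to -0.70 and that of Rcor2 to Rcor1 -0.26 to 0.58 without 1 library.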
